A study of Mus musculus with 24 samples.

Results

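The genes described here are 10 interleukin receptor chains of B lymphocytes: Il2ra, Il2rb, Il2rg, Il4ra, Il21r, Il10ra, Il7r, Il1r1, Il9r and Il6st. They are a list of names among the 23420 genes in the deposited files, with no threshold on a measured value, and the list was drawn up with earlier results of these data known. All 10 were found under these symbols and all 10 passed the filter on low values that left 11885 genes for testing. The data are RNA-seq of B cells sorted from the spleens of BALB/c mice, in 24 libraries forming 8 groups of 3. The groups are naive B cells, B cells activated in vitro and collected at 4 h, 12 h and 24 h, B cells activated in vivo, and germinal centre (GC) B cells labelled early, peak and late. The groups share the strain and the organ. The labels name no activating stimulus, immunogen, day of collection, animal or culture, so the p-values measure the spread between these libraries, which may be partly technical.

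Interleukin receptors pair a chain that binds 1 cytokine with chains shared between cytokines. Il2rg encodes the common gamma chain, the shared signalling subunit of the receptors for IL-2, IL-4, IL-7, IL-9, IL-15 and IL-21. The IL-2 receptor alpha chain (Il2ra, CD25) raises the affinity for IL-2 that the beta (Il2rb, CD122) and gamma chains bind and signal through. IL-4 and IL-21 are supplied to B cells in large part by follicular helper T cells and act in germinal centre B-cell growth, class switching and plasma cell formation. The receptors that these chains form signal through Janus kinases and STAT transcription factors, except the IL-1 receptor (Il1r1), which signals through MyD88 and IRAK kinases to NF-kappaB.

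The deposited values are log2 CPM, read counts scaled to a common library total, so a difference of 1 is a 2-fold difference, and 0 is 1 CPM. A change is called here where its limma p-value, adjusted by the Benjamini-Hochberg method over all 11885 genes tested, was under 0.05. The 7 B-cell markers summed to 6848 to 7260 CPM in naive libraries, 2652 to 3350 CPM in vitro and 5240 to 6840 CPM in vivo and in GC cells. At 4 h 6 of the 7 were lower than in naive by 2-fold or more, with a median of -1.66 log2. Of all genes tested 33.7% changed by 2-fold or more there, in either direction. Cd79a and Ms4a1 kept group means of 8.76 to 11.37 log2 in all 8 groups. Summed over 8 GC marker genes, the level was 2101 to 2332 CPM in peak GC and 143 to 148 CPM in naive libraries. In late GC libraries macrophage and monocyte markers summed to 539 to 2232 CPM, against 127 to 294 CPM in peak GC, and late GC replicate 1 was the highest for these and for neutrophil markers. The Y-linked gene Ddx3y had group means of 4.77 to 5.75 log2 in naive and in vitro libraries and of -6.18 in each of the in vivo activated and GC groups, so the sex of the mice and the difference between those 2 sets of groups cannot be told apart.

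Promoter sequences are shown for the 3 chains that rose most at 4 h in vitro, with matches to the motifs of NF-kappaB, STAT and AP-1 factors. RefSeq (GRCm38.p6) gave a promoter for 8 of the 10 members. Each line holds the 250 bases before the start site, 5′ to 3′ on the gene's strand. Capitals mark matches to the kappaB consensus in Il2ra and Il1r1 and to the STAT motif TTCNNNGAA in Il7r. Il1r1 has 2 annotated start regions, and the first holds no match.
Il2ra, chr2:11642542-11642791, plus strand: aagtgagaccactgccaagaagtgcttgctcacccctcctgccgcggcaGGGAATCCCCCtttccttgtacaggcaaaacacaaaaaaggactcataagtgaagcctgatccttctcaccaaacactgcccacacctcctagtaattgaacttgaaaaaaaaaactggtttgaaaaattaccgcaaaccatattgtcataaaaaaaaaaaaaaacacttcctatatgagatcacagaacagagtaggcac
Il7r, chr15:9529877-9530126, minus strand: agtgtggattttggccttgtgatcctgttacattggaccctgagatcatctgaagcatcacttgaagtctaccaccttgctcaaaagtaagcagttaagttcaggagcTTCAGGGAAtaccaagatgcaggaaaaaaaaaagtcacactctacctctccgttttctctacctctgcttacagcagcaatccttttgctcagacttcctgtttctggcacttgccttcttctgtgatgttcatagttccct
Il1r1, first start, chr1:40224830-40225079, plus strand: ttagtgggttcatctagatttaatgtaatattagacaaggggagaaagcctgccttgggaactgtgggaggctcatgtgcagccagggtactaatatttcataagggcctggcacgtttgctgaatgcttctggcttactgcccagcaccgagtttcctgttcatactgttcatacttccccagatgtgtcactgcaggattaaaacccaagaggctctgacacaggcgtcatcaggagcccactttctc
Il1r1, second start, chr1:40266336-40266585, plus strand: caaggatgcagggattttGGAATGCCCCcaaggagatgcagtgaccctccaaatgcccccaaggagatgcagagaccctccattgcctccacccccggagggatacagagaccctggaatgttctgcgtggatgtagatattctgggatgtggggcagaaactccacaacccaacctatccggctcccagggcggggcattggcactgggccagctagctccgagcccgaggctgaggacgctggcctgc

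The kappaB run of Il2ra is 2 overlapping matches on the same stretch, at positions -201 to -191 from the start site. The STAT match of Il7r lies at -142 to -134 and the kappaB match of Il1r1 at -232 to -223. Searched on both strands, the kappaB consensus was present in 3.9%, the STAT motif in 7.0% and the AP-1 motif TGANTCA in 6.7% of all 32851 promoters of the same length. No member promoter in the table held the AP-1 letters. These matches describe the letters of the windows and are no measurement of binding.

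**Figure D1:**
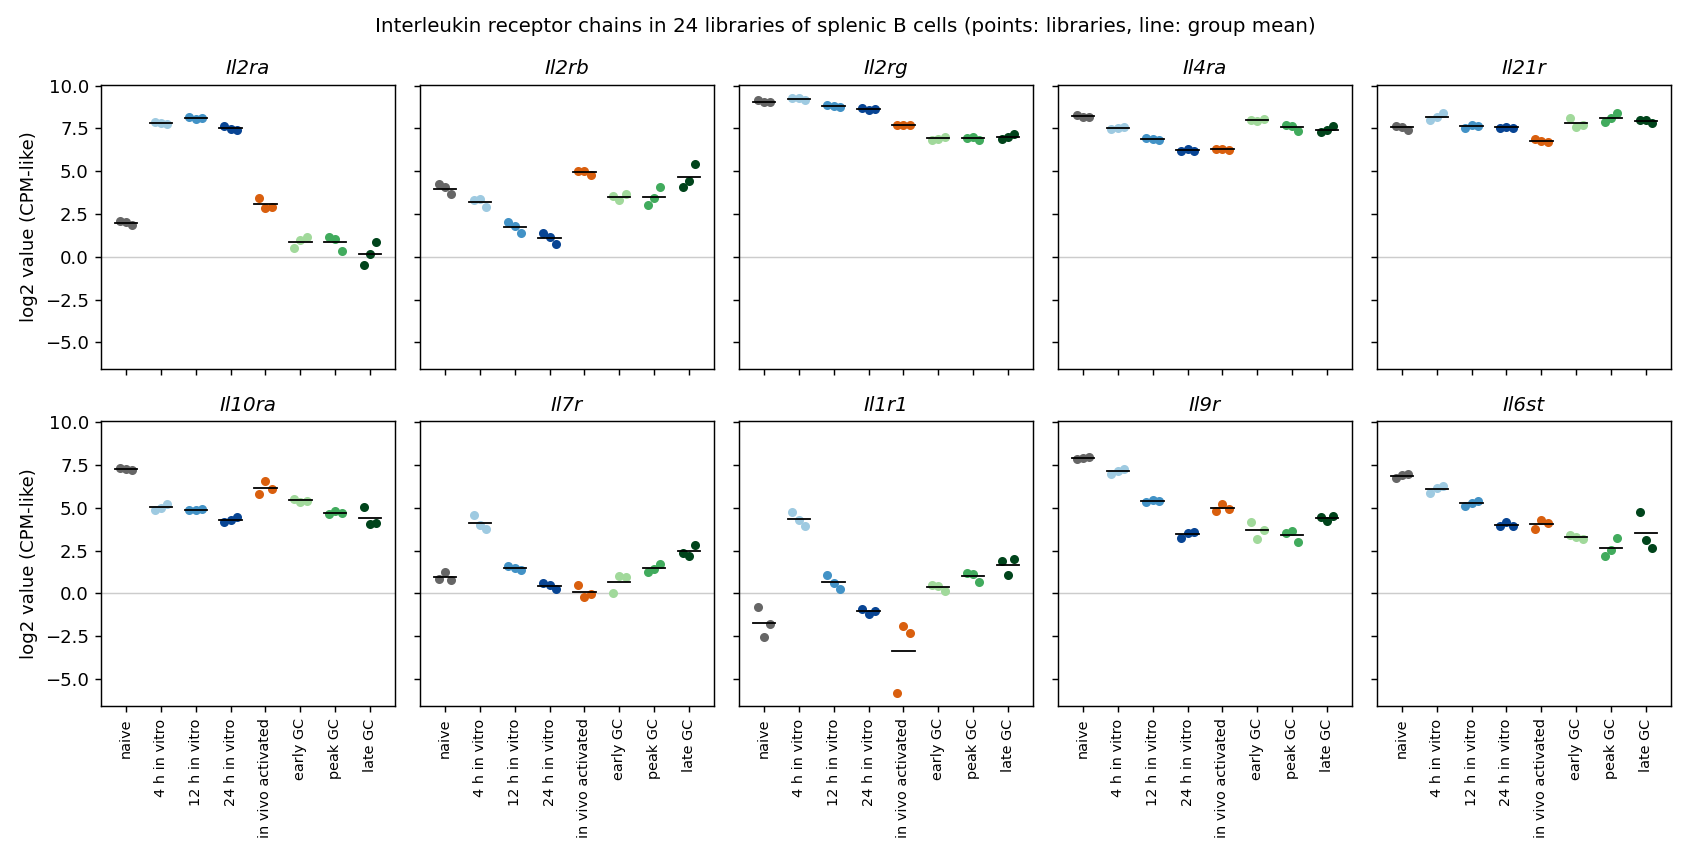
Each panel plots 1 receptor chain in the 24 libraries (log2 value on the y axis, 3 points per group, line at the group mean). Il2ra separates the in vitro libraries (7.43 to 8.18) from all others (at most 3.44), while Il21r stays between 6.71 and 8.38 throughout.

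Over the 8 groups the chains differed widely in how far their means moved. The range of the group means was 7.95 log2 for Il2ra, 7.70 for Il1r1, 4.52 for Il9r, 4.21 for Il6st, 4.03 for Il7r, 3.85 for Il2rb, 2.95 for Il10ra, 2.32 for Il2rg, 1.99 for Il4ra and 1.40 for Il21r. The range of Il2ra was larger than that of 98.7% of tested genes and that of Il21r larger than that of 40.1%. The median range was 3.94 log2 over the members and 1.66 over all genes tested. The chain specific for IL-21 was thus the steadiest of the 10 and the chain that raises IL-2 affinity the most variable.

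Il2ra lies on mouse chromosome 2 (mm10, bases 11642807 to 11693193, GENCODE M21), where a same-strand gene model overlaps it. Naive libraries read 2.11, 2.02 and 1.84 log2. After 4 h in vitro the libraries read 7.90, 7.82 and 7.77, after 12 h 8.18, 8.08 and 8.10, and after 24 h 7.67, 7.47 and 7.43. In vivo activated libraries read 3.44, 2.86 and 2.93. Every in vitro library thus lay above every library of the other groups. The early GC libraries were at 0.49, 0.97 and 1.16, peak GC at 1.14, 1.05 and 0.35, and late GC at -0.50, 0.17 and 0.85. All 9 GC libraries lay below all naive libraries, and the 3 GC groups overlapped each other.

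Against naive cells Il2ra rose by 5.84 ± 0.25 log2 at 4 h (SE, n = 3 per group, limma adjusted p = 8.39e-15), which is 57.3-fold. The rise was 6.13 ± 0.25 at 12 h (limma adjusted p = 2.74e-15) and 5.54 ± 0.25 at 24 h (limma adjusted p = 1.10e-14). Cells activated in vivo showed a rise of 1.09 ± 0.25 (limma adjusted p = 5.07e-04), and the direct comparison placed 24 h in vitro 4.45 ± 0.25 above in vivo activation (limma adjusted p = 2.45e-12). Peak GC cells were lower than naive by 1.14 log2 (SE 0.25, limma adjusted p = 2.97e-04). In bulk RNA, a change in the number of cells that hold a transcript and a change in RNA per cell cannot be told apart. CD25 is also a marker of regulatory T cells. The other markers of those cells summed to 15.96 to 28.0 CPM in the in vitro libraries and 16.4 to 22.6 CPM in naive, while Il2ra itself stood at 228 ± 10.5 CPM at 4 h and 3.98 ± 0.37 CPM in naive libraries (SD, n = 3). In vivo activated libraries held 35.0 to 41.7 CPM of these markers, beside Il2ra at 8.57 ± 1.99 CPM (SD, n = 3). Foxp3 was too low to be tested, and 1 of the 4 markers tested was higher than naive (all genes 39.2%). The part of regulatory T cells in the in vivo value was not tested.

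Il2rb (chromosome 15, bases 78479256 to 78495271) encodes the beta chain that IL-2 and IL-15 share. Naive libraries read 4.25, 4.07 and 3.65 log2. The in vitro libraries read 3.33, 3.37 and 2.94 at 4 h, 2.05, 1.78 and 1.40 at 12 h, and 1.40, 1.17 and 0.72 at 24 h. In vivo activated libraries read 4.997, 5.04 and 4.81. The 3 in vitro groups were apart from naive and the in vivo libraries lay above every naive library, so the alpha and beta chains of 1 receptor went in opposite directions in vitro and in the same direction in vivo. Early GC libraries read 3.54, 3.31 and 3.65, peak GC 3.01, 3.45 and 4.06, and late GC 4.09, 4.45 and 5.43. The late GC libraries lay above all peak GC libraries.

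Il2rb fell by 2.89 log2 from naive to 24 h in vitro (SE 0.29, limma adjusted p = 6.78e-09) and by 2.24 at 12 h (SE 0.29, limma adjusted p = 3.85e-07). It rose by 0.96 ± 0.29 in vivo (limma adjusted p = 0.00462), and 24 h in vitro lay 14.5-fold under in vivo activation (limma adjusted p = 2.16e-10). At 4 h the fall was 0.78 log2 (SE 0.29, limma adjusted p = 0.0185). It did not pass without naive replicate 1 (limma adjusted p = 0.0779), naive replicate 2 (0.0508) or 4 h replicate 3 (0.0796). Peak GC did not pass against naive, with a difference of -0.48 log2 and a 95% interval of -1.08 to 0.12. Without peak GC replicate 3 it read -0.76 log2 and passed (limma adjusted p = 0.0247).

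CD122 is abundant on natural killer (NK) cells, and the 9 NK markers summed per library moved with Il2rb in 7 of the 8 groups. Their sums were 52.3 to 88.6 CPM in naive libraries, 15.6 to 23.2 at 4 h, 5.61 to 8.53 at 12 h and 2.70 to 4.77 at 24 h. In GC libraries they were 42.1 to 48.3 (early), 42.5 to 60 (peak) and 84.1 to 220 CPM (late). From peak to late GC 2 of the 8 markers tested rose and 0 fell (all genes 12.0% and 20.6%). Against naive, 1 was higher and 1 lower in peak GC (all genes 40.5% and 39.3%). Of the 8 NK markers tested, 8 fell from naive to 24 h in vitro (all genes 42.5%), and their part in the fall of Il2rb was not tested. In the in vivo activated libraries the NK sums were 4.27 to 6.37 CPM. There 8 of 8 markers were lower than in naive (all genes 40.1%), and Il2rb was at its highest group mean, 4.95 log2. Whether NK cells contributed to Il2rb in the in vivo activated or GC libraries was not tested.

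**Figure D2:**
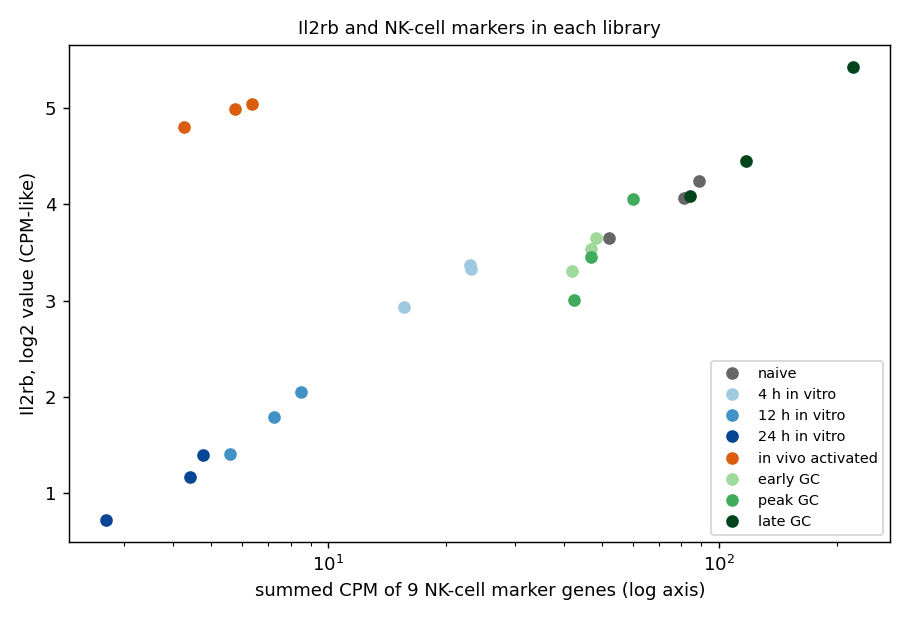
The plot sets Il2rb (log2 value, y axis) against the summed CPM of 9 NK-cell markers (log x axis) in each of the 24 libraries, coloured by group. The 3 in vivo activated libraries sit apart at NK sums of 4.27 to 6.37 CPM with Il2rb from 4.81 to 5.04; the other 21 libraries run from low in both to high in both.

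Il2rg (chromosome X, bases 101264378 to 101268255) encodes the common gamma chain, and a same-strand protein-coding gene model overlaps it. The naive libraries read 9.14, 9.02 and 9.03 log2, and the 4 h libraries 9.29, 9.26 and 9.17. At 12 h the values were 8.86, 8.82 and 8.74 and at 24 h 8.69, 8.60 and 8.66. The in vivo libraries read 7.71, 7.73 and 7.72, and the GC libraries ran from 6.83 to 7.20. The levels thus stepped down from the naive and in vitro groups to in vivo activation and again to the GC groups, with no overlap between those 3 sets.

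Per kb of exon, Il2rg was the highest of the 10 chains in the naive, in vitro and in vivo activated groups (7.81 log2 per kb in naive). In each GC group Il21r was higher, at 6.39 against 5.67 for Il2rg in peak GC. Il2rg was lower in peak GC than in naive by 2.14 log2, a 4.42-fold fall (SE 0.07, limma adjusted p = 7.76e-19). It fell by 1.35 from naive to in vivo activated cells (SE 0.07, limma adjusted p = 6.96e-15) and by 0.42 to 24 h in vitro (SE 0.07, limma adjusted p = 3.29e-06). The small rise at 4 h, 0.18 ± 0.07 log2 (limma adjusted p = 0.0175), did not pass without naive replicate 2 (limma adjusted p = 0.0626), naive replicate 3 (0.0566) or 4 h replicate 1 (0.0684). Il2rg is X-linked, and the split of Ddx3y between the groups runs along the same line as its larger falls. Xist was present in every group, with means of 6.69 to 7.23 log2 in naive and in vitro groups and 8.07 to 8.43 in the others.

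**Figure D3:**
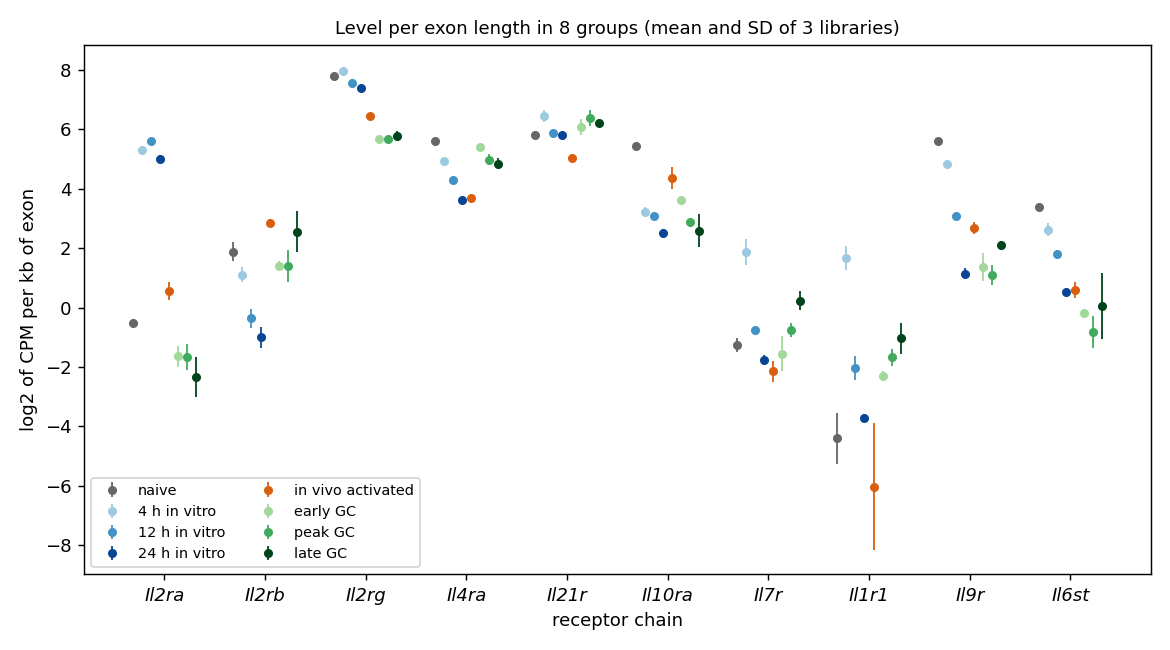
Level of each chain per kb of exon (log2 CPM per kb, y axis) in the 8 groups (points: mean of 3 libraries, bars: SD). Il2rg leads in naive, in vitro and in vivo activated groups (7.81 in naive) and Il21r leads in the GC groups (6.39 in peak GC).

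Il4ra and Il21r are neighbours on chromosome 7. Il4ra occupies bases 125552120 to 125579474 and Il21r bases 125603429 to 125633570, with 23954 bases and 0 annotated genes between them. An antisense gene model overlaps Il4ra, and reads of overlapping models may have been counted with it. Il4ra encodes the chain that binds IL-4 and takes part in IL-13 receptors. Its naive libraries read 8.30, 8.14 and 8.19 log2. The in vitro libraries read 7.48, 7.54 and 7.59 at 4 h, 6.93, 6.86 and 6.85 at 12 h, and 6.19, 6.28 and 6.18 at 24 h. Each in vitro time lay wholly below the time before it. The in vivo activated libraries read 6.29, 6.29 and 6.26 and overlapped those of 24 h.

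In the germinal centre Il4ra was nearer to its naive level than in cells activated in vivo. Early GC libraries read 7.99, 7.93 and 8.07, peak GC 7.70, 7.66 and 7.36, and late GC 7.27, 7.42 and 7.63 log2. The early libraries were above all peak libraries, and peak and late overlapped. Il4ra fell by 1.99 log2 from naive to 24 h in vitro (SE 0.08, limma adjusted p = 7.12e-17) and by 1.93 to in vivo activation (SE 0.08, limma adjusted p = 3.07e-16). Between 24 h in vitro and in vivo activation it differed by -0.06 log2 (95% interval -0.23 to 0.10). Peak GC was 1.29 ± 0.08 log2 above in vivo activation (limma adjusted p = 1.09e-12), 0.64 below naive (limma adjusted p = 1.22e-07) and 0.43 below early GC (limma adjusted p = 6.73e-04).

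Il21r, the IL-21-binding chain, was the steadiest. Naive libraries read 7.66, 7.59 and 7.43 log2, 4 h 7.995, 8.18 and 8.38, 12 h 7.52, 7.71 and 7.65, and 24 h 7.55, 7.59 and 7.54. The 4 h libraries were above all naive ones, and the 12 h and 24 h libraries overlapped naive. In vivo activated libraries were the lowest at 6.87, 6.77 and 6.71. Early GC libraries read 8.12, 7.62 and 7.68, peak GC 7.86, 8.14 and 8.38, and late GC 8.01, 7.99 and 7.82. Il21r rose by 0.62 ± 0.12 at 4 h (limma adjusted p = 1.02e-04) and by 0.56 ± 0.12 in peak GC (limma adjusted p = 2.93e-04), and it fell by 0.78 in vivo (SE 0.12, limma adjusted p = 6.60e-06). At 24 h its difference from naive had a 95% interval of -0.26 to 0.26 log2. Peak GC lay 1.34 ± 0.12 above in vivo activation (limma adjusted p = 3.79e-09), so the IL-4 and IL-21 chains were 2.45-fold and 2.53-fold higher in peak GC cells than in cells activated in vivo. Peak against early GC gave 0.32 ± 0.12 for Il21r (limma adjusted p = 0.0956), which passed without early GC replicate 1 (0.48, 0.00847) or peak GC replicate 1 (0.45, 0.0183).

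Il10ra (chromosome 9, bases 45253837 to 45269149) encodes the ligand-binding chain for IL-10. Naive libraries held 7.30, 7.26 and 7.24 log2, more than every other library. The 4 h libraries read 4.85, 5.02 and 5.20, 12 h 4.85, 4.85 and 4.93, and 24 h 4.17, 4.30 and 4.46. Those activated in vivo read 5.81, 6.56 and 6.13. In vivo activation thus kept more Il10ra than any in vitro time, with no overlap. Early GC libraries read 5.54, 5.37 and 5.42, peak GC 4.62, 4.79 and 4.67, and late GC 5.03, 4.04 and 4.12. Late GC replicate 1, the library with the highest macrophage and neutrophil markers, was also the highest of its group for Il10ra. The fall from naive was 2.25 log2 at 4 h (SE 0.19, limma adjusted p = 7.51e-10), 2.95 at 24 h (limma adjusted p = 5.15e-12), 1.10 in vivo (limma adjusted p = 2.12e-05) and 2.57 in peak GC (limma adjusted p = 8.06e-11). From early to peak GC Il10ra fell by a further 0.75 (limma adjusted p = 0.0112). Late against peak GC gave -0.30 log2 (limma adjusted p = 0.231) and, without late GC replicate 1, -0.62 (limma adjusted p = 0.00275).

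The transient members were Il7r and Il1r1. Il7r (chromosome 15, bases 9505788 to 9530176) encodes the IL-7 receptor alpha chain, which is best known from B-cell precursors and T cells. Naive libraries read 0.85, 1.24 and 0.80 log2. The 4 h libraries read 4.58, 3.99 and 3.74, 12 h 1.57, 1.47 and 1.36, and 24 h 0.59, 0.51 and 0.27. The 4 h libraries were above every other library of the study. Activated in vivo, the libraries read 0.46, -0.21 and -0.03, early GC -0.01, 1.04 and 0.97, peak GC 1.27, 1.44 and 1.74, and late GC 2.35, 2.19 and 2.82.

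Il7r rose by 3.14 ± 0.26 at 4 h, 8.82-fold (limma adjusted p = 9.57e-11), and lost 3.65 log2 between 4 h and 24 h (SE 0.26, limma adjusted p = 1.00e-11). It fell by 0.89 in vivo (limma adjusted p = 0.00322). Across the GC groups it read higher at each later label: peak was 0.82 ± 0.26 above early (limma adjusted p = 0.0371) and late 0.97 ± 0.26 above peak (limma adjusted p = 0.00612). The peak against early call was lost without early GC replicate 1 (0.48 log2, limma adjusted p = 0.225), peak GC replicate 2 (0.84, 0.0718) or peak GC replicate 3 (0.69, 0.128). It was also lost with a replicate block (limma adjusted p = 0.0618), no filter (0.109), a pseudocount of 1 CPM (0.0503) or the 6 libraries of the 2 groups alone (0.184). T-cell markers summed to 14.5 to 17.5 CPM in peak and 23.9 to 57.4 CPM in late GC. Of these, 1 of 8 tested rose (all genes 12.0%), and Cd4, Cd8a, Cd8b1 and Themis were too low to be tested. Innate lymphoid cell markers summed to 8.23 to 11.4 CPM in peak and 24.2 to 43.9 CPM in late GC. Of these, 2 of 3 tested rose (all genes 12.0%), with a median of 1.84 log2. Pro-B and pre-B cell markers summed to 2.51 to 5.29 CPM in peak and 4.55 to 5.71 CPM in late GC. Of these, 0 of 2 tested rose (all genes 12.0%). The part of these cell types in the late GC value was not tested.

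Il1r1 (chromosome 1, bases 40225080 to 40317257, overlapped by a same-strand model) encodes the signalling receptor for IL-1. Naive libraries read -0.83, -2.56 and -1.82 log2. The 4 h libraries read 4.75, 4.29 and 3.96, 12 h 1.07, 0.61 and 0.24, and 24 h -0.92, -1.20 and -1.05. The naive level was under 1 CPM, the 4 h libraries were the highest of the study, and the 24 h libraries overlapped naive. In vivo activated libraries read -5.82, -1.94 and -2.33, the first of them at the lower limit of the files. Early GC libraries read 0.50, 0.44 and 0.16, peak GC 1.20, 1.13 and 0.66, and late GC 1.86, 1.05 and 1.998, all above all naive libraries.

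Il1r1 rose by 6.07 ± 0.65 log2 at 4 h (limma adjusted p = 2.73e-08) and by 2.38 ± 0.65 at 12 h (limma adjusted p = 0.00219). It then lost 5.39 log2 between 4 h and 24 h (SE 0.65, limma adjusted p = 2.03e-07). Peak GC was 2.73 ± 0.65 above naive (limma adjusted p = 6.60e-04) and 4.36 ± 0.65 above in vivo activation (limma adjusted p = 4.69e-06). Peak GC held Il1r1 at 2.02 ± 0.38 CPM (SD, n = 3). Against naive and in vivo activated cells, 40.5% and 34.1% of all genes tested were higher in that group. Of the basophil and mast-cell markers 6 of 6 were higher in both comparisons (medians 2.85 and 3.89 log2). Of 10 macrophage markers 5 were higher and 1 lower in both. Of 7 neutrophil markers 3 were higher than in naive cells and 7 than in cells activated in vivo. The part of these cells in the GC values was not tested. With a naive level so close to the lower limit, the fold changes depend on the offset that the deposited values carry. The fall in vivo, 1.63 log2 (limma adjusted p = 0.0268), was between overlapping groups. It did not pass without in vivo replicate 1 (a fall of 0.40 log2, limma adjusted p = 0.349) or naive replicate 1 (1.17, 0.136). The call was also lost with a pseudocount of 1 CPM (a fall of 0.20 log2, limma adjusted p = 0.312). The same held with no filter (limma adjusted p = 0.0757) and for the 6 libraries of the 2 groups alone (0.133).

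Il9r and Il6st were highest in naive cells and lower in all 7 other groups. Il9r (chromosome 11, bases 32187541 to 32200279) encodes the IL-9-binding chain. Its naive libraries read 7.85, 7.93 and 7.97 log2. The in vitro libraries read 6.98, 7.15 and 7.26 at 4 h, 5.33, 5.44 and 5.41 at 12 h, and 3.25, 3.55 and 3.56 at 24 h. Each time was wholly below the one before. Libraries of the in vivo group read 4.83, 5.21 and 4.95, early GC 4.15, 3.19 and 3.71, peak GC 3.53, 3.65 and 3.01, and late GC 4.47, 4.26 and 4.52. The late GC libraries were above all early and peak ones and below all in vivo ones.

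Il9r fell by 4.47 log2 at 24 h, 22.1-fold (SE 0.18, limma adjusted p = 1.10e-15), by 2.93 in vivo (SE 0.18, limma adjusted p = 3.03e-12) and by 4.52 in peak GC (SE 0.18, limma adjusted p = 1.51e-15). It rose by 1.02 ± 0.18 from peak to late GC (limma adjusted p = 2.70e-04), and the rise was between 0.82 and 1.14 when any 1 of the 6 libraries was left out. Mast cells also use IL-9. Basophil and mast-cell markers summed to 27.5 to 38.7 CPM in peak and 94.1 to 180 CPM in late GC, and their part in this rise was not tested.

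Il6st (chromosome 13, bases 112464070 to 112510086) encodes gp130, the signalling chain of the IL-6 family. Naive libraries read 6.72, 6.91 and 6.97 log2, 4 h 5.85, 6.17 and 6.27, 12 h 5.10, 5.31 and 5.38, and 24 h 3.91, 4.16 and 3.95. The steps between these groups did not overlap. In vivo activated libraries read 3.78, 4.29 and 4.14, overlapping 24 h, early GC 3.44, 3.29 and 3.17, peak GC 2.18, 2.52 and 3.25, and late GC 4.78, 3.14 and 2.65. Late GC replicate 1 stood above the rest of the GC libraries. Il6st fell by 1.602 log2 at 12 h (SE 0.36, limma adjusted p = 4.37e-04), by 2.86 at 24 h (limma adjusted p = 4.30e-07), by 2.80 in vivo (limma adjusted p = 7.35e-07) and by 4.22 in peak GC (limma adjusted p = 2.09e-09). Its value at 4 h was 0.77 log2 below naive, which did not pass (limma adjusted p = 0.0568) but did so with a pseudocount of 1 CPM (0.0428) and when fitted on those 6 libraries alone (1.46e-05). Late against peak GC gave 0.88 ± 0.36 (limma adjusted p = 0.0674), and 0.25 without late GC replicate 1.

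**Figure D4:**
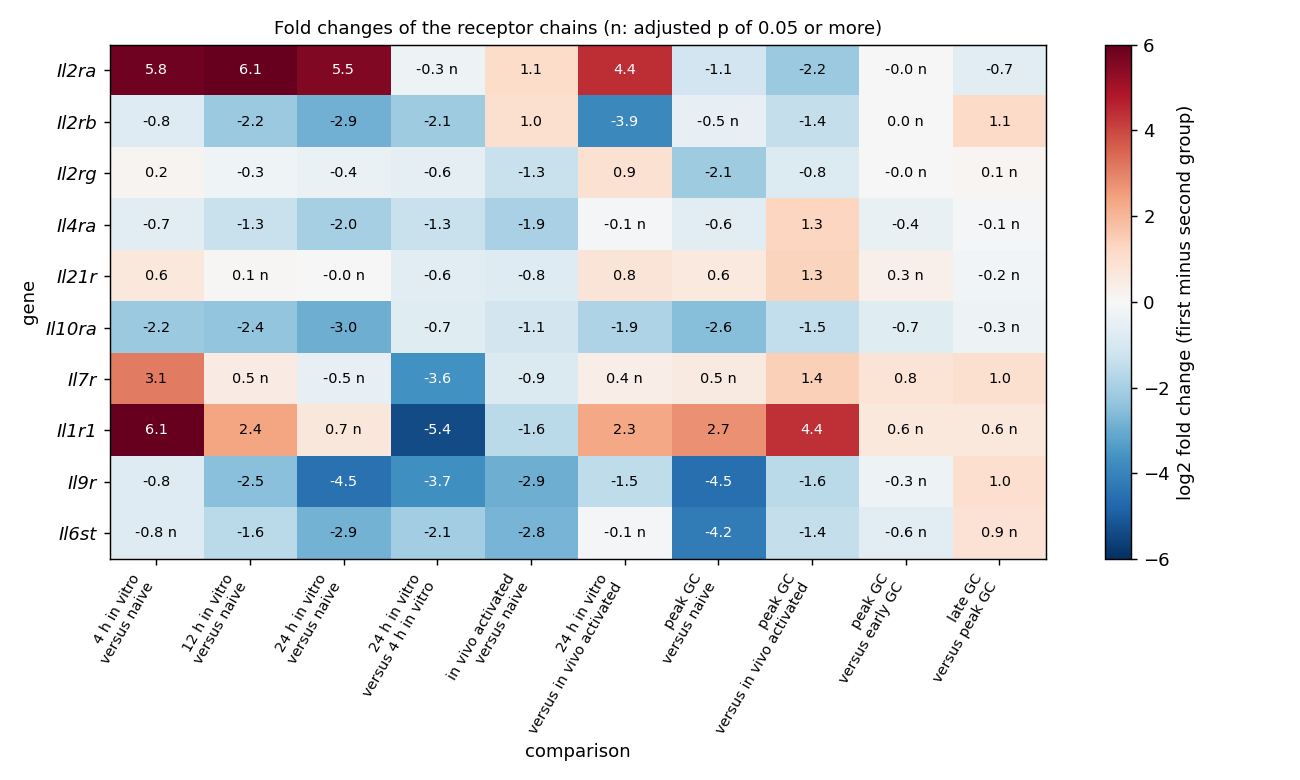
Log2 fold change of the 10 chains (rows) in the 10 comparisons (columns), first group minus second, with n where the adjusted p was 0.05 or more. Il2ra, Il7r and Il1r1 stand out in the 4 h column (rises of 5.84, 3.14 and 6.07). Between 4 h and 24 h 9 of the 10 chains fell, against 39.2% of all genes tested.

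Large parts of the transcriptome passed the test in most comparisons, so the counts of members stand beside the shares of all genes tested. At 4 h in vitro 5 of 10 members rose and 4 fell, against 38.9% and 39.1% of all genes tested, and 4 changed by at least 2-fold, against 33.7%. At 12 h 2 rose and 6 fell (all genes 41.7% and 39.2%), and 7 changed by 2-fold or more (38.9%). At 24 h 1 rose and 6 fell (42.2% and 42.5%), with 6 at 2-fold or more (46.7%). The single riser at 24 h was Il2ra.

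Between 4 h and 24 h in vitro 0 of 10 members rose and 9 fell, against 36.8% and 39.2% of all genes, and 6 changed by 2-fold or more (27.1%). The median change of the members was -1.70 log2 and that of all genes -0.03. Il2ra was the member that did not pass, at -0.30 log2 with a 95% interval of -0.83 to 0.22, although the 24 h libraries lay below all 4 h libraries. Fitted on those 6 libraries alone the change passed (limma adjusted p = 9.13e-04).

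In vivo activation against naive gave 2 rises, Il2ra and Il2rb, and 8 falls (all genes 39.2% and 40.1%), with 7 members at 2-fold or more (33.5%). Of these falls, that of Il1r1 did not pass under several alternatives. The 24 h in vitro group against in vivo activation gave 4 higher and 3 lower members (36.3% and 33.6%), and 5 differed by at least 2-fold (20.1%). The higher ones in vitro were Il2ra, Il1r1, Il2rg and Il21r, and the lower ones Il2rb, Il10ra and Il9r. The comparisons with naive share the naive libraries, so their values are not independent of each other.

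Peak GC against naive gave 2 rises, Il1r1 and Il21r, and 6 falls (40.5% and 39.3%), with 6 members at 2-fold or more (34.7%). Peak GC against in vivo activation called all 10 members, 4 up and 6 down (34.1% and 35.0%), and 9 of them by 2-fold or more (23.6%). The median size of change there was 1.43 log2 for members and 0.43 for all genes. The 4 that were higher in peak GC were Il1r1, Il7r, Il21r and Il4ra.

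Within the germinal centre fewer genes changed. Between early and peak GC 1 member rose (Il7r) and 2 fell (Il4ra and Il10ra), against 5.77% and 7.42% of all genes, and 0 members changed by 2-fold (3.04%). Between peak and late GC 3 rose (Il2rb, Il9r and Il7r) and 1 fell (Il2ra), against 12.0% and 20.6%, and 2 changed by at least 2-fold (8.27%). The call on Il2ra, a fall of 0.67 log2 between overlapping groups (limma adjusted p = 0.0447), held neither with a replicate block (0.0671) nor without peak GC replicate 1 (0.167), peak GC replicate 2 (0.141), late GC replicate 1 (0.28) or late GC replicate 2 (0.0865). Without late GC replicate 1 the rises of Il2rb (1.43 log2, limma adjusted p = 0.00134), Il9r (0.99, 0.00144) and Il7r (1.02, 0.013) passed. Late GC replicate 3 had the highest NK-marker sum, and within late GC also the highest T-cell, innate lymphoid, and basophil and mast-cell sums. Without it Il2rb read 0.76 above peak (limma adjusted p = 0.0331). How far any of these cell types entered the rise was not tested. Fitted on the 6 libraries of peak and late GC alone, the rise of Il2rb did not pass (limma adjusted p = 0.106).

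The cytokines that these chains bind differed in level, and the gamma-chain and related ones stayed under 1 CPM in every library. Of 8 ligands of gamma-chain and related receptors, 0 passed the filter, and the highest single library values were -0.15 log2 for Il13, -0.64 for Il4, -1.08 for Il15 and -1.17 for Il2. Of 11 other ligands 7 were tested. Il10 had its highest group mean, 2.83 log2, in cells activated in vivo (2.48 to 3.39), overlapping late GC (1.30 to 4.15). Il1b had its highest, 3.175, in late GC, where the macrophage-marker sums were highest too. Il1rn had a mean of 2.40 log2 at 4 h and of -4.46 in naive cells. Ebi3, a subunit of IL-27 and IL-35, fell by 2.31 log2 at 4 h (SE 0.13, limma adjusted p = 1.40e-13), stood 1.08 ± 0.13 above naive at 24 h (limma adjusted p = 8.05e-08) and 1.804 ± 0.13 above it in vivo (limma adjusted p = 1.46e-11). Clcf1, a gp130 ligand, fell by 2.51 in vivo (limma adjusted p = 4.87e-12). Osm, another, rose by 1.91 ± 0.23 from peak to late GC (limma adjusted p = 3.50e-06), where macrophage markers were also higher.

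Of 38 other interleukin receptor chains 26 were tested. At 4 h 10 rose and 7 fell, with a median of 0.40 log2 against -0.01 for all genes. The share that rose is close to the 38.9% of all genes, and the share that fell lies under their 39.1%. The IL-1 decoy receptor Il1r2 rose by 2.89 ± 0.30 (limma adjusted p = 1.63e-08) and Il15ra by 1.91 ± 0.20 (limma adjusted p = 8.46e-09). Il5ra fell by 1.96 (limma adjusted p = 4.37e-07) and Il27ra by 1.79 (limma adjusted p = 2.76e-09). So both the signalling and the decoy receptor of IL-1 were higher at 4 h. By 24 h 4 rose and 12 fell (all genes 42.2% and 42.5%), with a median of -0.38 log2.

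In vivo 7 of the other chains rose and 12 fell (all genes 39.2% and 40.1%). Csf2rb, the common beta chain, rose by 2.39 ± 0.23 (limma adjusted p = 7.41e-09) and Il6ra by 1.86 ± 0.24 (limma adjusted p = 4.31e-07). Reads of Csf2rb may be divided with its close paralog Csf2rb2, which rose by 2.03 ± 0.23 (limma adjusted p = 2.77e-08). Il6ra binds IL-6 and signals through gp130, whose gene Il6st fell in the same comparison. In peak GC 9 rose and 13 fell (all genes 40.5% and 39.3%). Il10rb, the partner of Il10ra, fell by 3.59 log2 (SE 0.09, limma adjusted p = 2.78e-20), and Il27ra, a partner of gp130, fell by 3.57 (SE 0.17, limma adjusted p = 1.57e-14). Il3ra rose by 1.49 ± 0.12 (limma adjusted p = 1.30e-10). Both chains of the IL-10 receptor were therefore lower in peak GC than in naive cells.

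All 11 Janus kinase and STAT genes were tested. At 4 h 4 rose and 5 fell (all genes 38.9% and 39.1%). Stat5a, a factor of IL-2 signalling, rose by 2.22 ± 0.05 at 4 h (limma adjusted p = 1.49e-20) and was 2.43 ± 0.05 above naive at 24 h (limma adjusted p = 5.86e-22), alongside Il2ra. It rose by 0.40 ± 0.05 in vivo (limma adjusted p = 1.35e-07) and by 0.56 ± 0.05 in peak GC (limma adjusted p = 4.14e-10). The other STAT5 gene, Stat5b, had means of 6.99 log2 in naive cells and at 4 h, 6.59 at 24 h and 7.57 in peak GC. Jak3, the kinase bound by the gamma chain, fell by 2.15 at 4 h (SE 0.07, limma adjusted p = 1.04e-17) while Il2rg did not fall there. Stat4 rose by 1.84 ± 0.26 at 4 h (limma adjusted p = 1.46e-06) and was 3.94 log2 lower in peak GC than in naive (limma adjusted p = 1.12e-11). Over the list 3 rose and 7 fell at 24 h (all genes 42.2% and 42.5%), 3 and 6 in vivo (39.2% and 40.1%), and 2 and 6 in peak GC (40.5% and 39.3%).

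All 17 cytokine signal inhibitors were tested. At 4 h 5 rose and 9 fell (all genes 38.9% and 39.1%) and at 24 h 4 and 12 (42.2% and 42.5%). In vivo 3 rose and 12 fell (39.2% and 40.1%), and in peak GC 3 and 10 (40.5% and 39.3%). Socs3, which acts on gp130 receptors, fell by 6.13 log2 at 24 h (SE 0.23, limma adjusted p = 4.65e-16), by 3.79 in vivo (limma adjusted p = 3.27e-12) and by 5.11 in peak GC (limma adjusted p = 1.88e-14). Socs3 and Il6st thus fell in the same 3 comparisons. Socs1 fell by 2.89 at 24 h (limma adjusted p = 9.12e-15) and by 2.59 in vivo (limma adjusted p = 1.37e-13). In peak GC it differed from naive by -0.04 log2, which did not pass (limma adjusted p = 0.805), and it stood 2.55 ± 0.15 above in vivo activation (limma adjusted p = 3.89e-13).

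**Figure D5:**
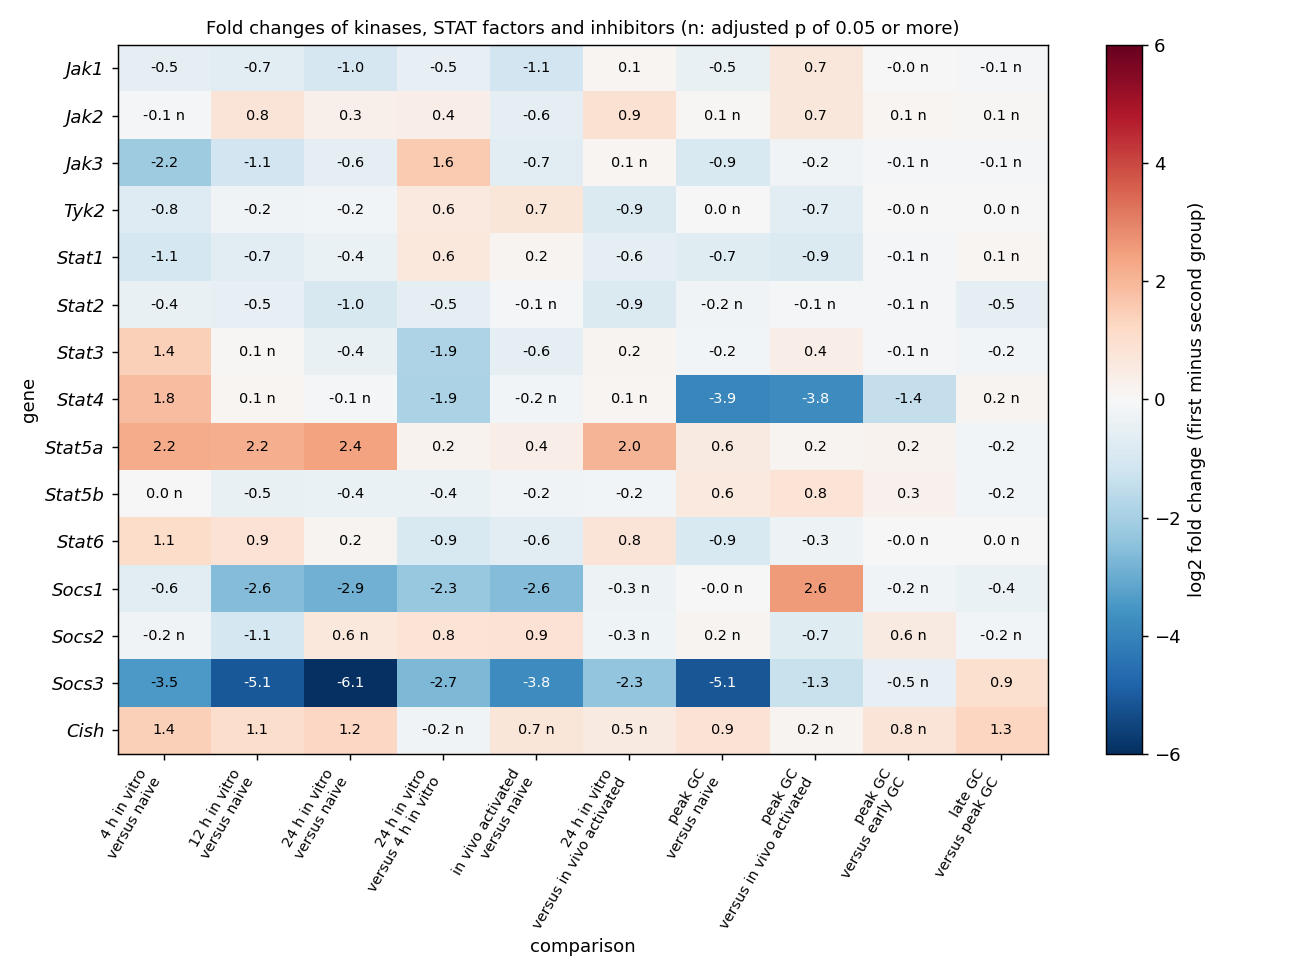
Log2 fold changes of the 4 Janus kinases, 7 STAT genes, Socs1 to Socs3 and Cish (rows) in the 10 comparisons (columns), first group minus second, with n where the adjusted p was 0.05 or more. Stat5a is higher than naive in all 3 in vitro columns (2.22 at 4 h, 2.43 at 24 h) and Socs3 is lower than naive in every column against naive.

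Of 18 survival and STAT target genes, 7 rose and 8 fell at 4 h, 7 and 9 at 24 h, 8 and 7 in vivo, and 8 and 9 in peak GC. The shares of all genes were 38.9% and 39.1%, 42.2% and 42.5%, 39.2% and 40.1%, and 40.5% and 39.3% in the same order. Bcl2l1, which encodes the survival factor Bcl-xL, rose by 3.59 ± 0.09 at 4 h (limma adjusted p = 1.28e-19), by 4.70 ± 0.09 at 24 h (limma adjusted p = 3.74e-22) and by 2.02 ± 0.09 in vivo (limma adjusted p = 2.97e-15). Bcl2 fell by 2.88 at 4 h (SE 0.11, limma adjusted p = 8.08e-17) and by 5.74 in peak GC (SE 0.11, limma adjusted p = 2.11e-22). Of 17 genes of IL-1 receptor signalling, 5 rose and 8 fell at 4 h (all genes 38.9% and 39.1%), where Nfkb1 rose by 1.66 ± 0.05 (limma adjusted p = 7.79e-19) and Myd88 by 0.63 ± 0.05 (limma adjusted p = 7.05e-12). In peak GC 2 rose and 12 fell (all genes 40.5% and 39.3%), with a median of -0.53 log2 against 0.01 for all genes, and Irak3, an inhibitor of this pathway, fell by 4.39 (SE 0.15, limma adjusted p = 8.13e-18). Il1r1 itself was higher than naive in both of these comparisons.

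For each chain the genes with the most similar profile were taken as the 3 highest Pearson correlations over the 24 libraries, which fall into 8 groups and are not independent points. Il2ra was followed most closely by Aven, Ltv1 and Polr1b (r = 0.992, 0.992 and 0.991). Il2rg had Ehd1 (0.99), Il4ra Abhd16a (0.98), Il10ra Themis2 (0.973), Il9r Specc1l (0.971) and Il6st Mtmr10 (0.968) as their closest genes. The closest genes of Il21r, Il1r1, Il2rb and Il7r were Ctdp1 (0.945), Pqlc1 (0.927), Pmaip1 (0.914) and Tbkbp1 (0.901). Eng was among the 3 closest for both Il7r (0.892) and Il1r1 (0.893).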

How the data were processed

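Per the labels' protocols, splenic B cells were purified with beads, stained with antibodies and sorted, and stranded mRNA libraries were sequenced as paired reads. The submitters' processing notes name STAR 2.6.0c, mm10, featureCounts, limma, Subread 1.6.2, cutadapt 1.8.3 and FastQC 0.11.5; their order and options are not given in the sources used here. The authors deposited log2 values, 1 file per library. They act as log2 CPM (2 to the power of the values sums to 990678 to 1008194 per library), they were already normalized between libraries, and the means of the 3 replicate numbers differ by at most 0.000875 log2. A replicate effect may have been removed before deposit, which the sources used here do not give. Read depth is unknown, and genes without reads sit near -6.18 log2; values below -5 were treated as the lower limit.

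The values were used as deposited. Genes with at least 1 CPM in at least 3 libraries were kept (11885 of 23420). limma 3.58.1 (R 4.3.3) was fitted with 1 mean per group over 24 libraries, with trend and robust moderation and 16 residual degrees of freedom, and was tested on simulated data. If a replicate effect was removed, 14 remain and the SEs and p-values are somewhat too small; the fit with a replicate block has 14. SEs and 95% intervals are from this fit. Calls use Benjamini-Hochberg adjusted p under 0.05. Levels per kb use the exon union of GENCODE M21 genes (mm10). From each pathway list, up to 2 genes per direction and comparison with the largest called changes at 10 CPM or more are named. The members, lists and tests were chosen with earlier results of these data known. Alternatives were no filter, a filter at 5 CPM, a pseudocount of 1 CPM, median centring, no trend or robust moderation, a replicate block, the 6 libraries of a comparison alone, and each library left out.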

Additional observations from a re-analysis of the deposited data

How the results depend on the processing

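Of 1300 alternative values for the 100 pairs of a member and a comparison, 1239 kept their direction and side of the threshold, 30 no longer passed, 18 newly passed and 13 changed sign. The sign changes were all in differences that did not pass, when 1 library was left out. Over those fits Il21r ranged from -0.001 to 0.118 log2 at 12 h against naive and from -0.065 to 0.05 at 24 h, and Il6st from -0.205 to 0.047 for 24 h in vitro against in vivo activation. Between early and peak GC the ranges were -0.216 to 0.22 for Il2ra, -0.266 to 0.261 for Il2rb and -0.045 to 0.047 for Il2rg. With the 6 libraries of the 2 groups alone, 2 members instead of 4 passed between peak and late GC, since Il2ra (limma adjusted p = 0.272) and Il2rb (0.106) did not; over all genes 1207 instead of 3877 passed there, and 610 instead of 1568 between early and peak GC. Over all alternatives the count of members ranged from 2 to 6 for late against peak GC, from 2 to 4 for peak against early GC and from 7 to 10 for 4 h against naive. Without peak GC replicate 3 the late GC count included Il6st and Il4ra, and without late GC replicate 3 the same 2 chains. With naive replicate 2 left out Il7r passed at 12 h (0.64, limma adjusted p = 0.0444) and in peak GC (0.66, 0.0404) against naive, with early GC replicate 2 left out Il9r passed between early and peak GC (-0.53, 0.0412), and with late GC replicate 1 left out Il2rg passed between peak and late GC (0.18, 0.0431). The call of 24 h in vitro above in vivo activation for Il1r1 did not pass with a pseudocount of 1 CPM (0.36 log2, limma adjusted p = 0.0838). Asking for at least 2-fold in addition lowered 42 of 60 counts of the pathway lists by more than 1.5 times. The causes of these shifts were not tested. Depth is unknown, so levels under 1 CPM (Il1r1 in naive, 24 h in vitro and in vivo activated cells) are the least certain.

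The labels number the replicates 1 to 3 in every group. The correlations of same-numbered libraries' deviations ran from -0.369 to 0.112 over 84 pairs, but the deposited values already have equal means per number, which holds these correlations down, so they do not show whether the numbers pair the libraries. With the replicate number as a block the count of members called was 2 for peak against early GC and 3 for late against peak GC, against 3 and 4 without it, and 1182 and 3277 genes passed in all. It changed the call of no member other than Il7r (peak against early GC, limma adjusted p = 0.0618) and Il2ra (late against peak GC, 0.0671).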
